A study of Mus musculus with 6 samples.

Results

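C1q-positive macrophages were studied in single-cell RNA sequencing of lower abdominal muscle (LAM), the muscle of the groin wall, from 3 wild-type (WT) and 3 Aromhum male mice. All 6 mice were FVB/N and 9 to 10 weeks old, and the Aromhum mice, labelled with scrotal hernia, carry a transgene of the human aromatase gene under its own native promoters, so that estrogen is made in more tissues than in a normal mouse. The muscle was digested with collagenase and Dispase and passed through a cell filter, a preparation of mononucleated cells that leaves muscle fibers out. A barcode, the tag of 1 droplet, was counted as a C1q-positive macrophage when it held at least 1000 unique molecular identifiers (UMIs, the count of captured RNA molecules), at most 10% of them from the 13 mitochondrial genes, at least 10 UMIs of C1qa, C1qb and C1qc together, at least 1 UMI of Csf1r or Cd68, and none of Pdgfra (fibroblasts) or Pecam1 (endothelium). The cells were thus chosen by their measured UMIs of C1qa, C1qb, C1qc, Csf1r, Cd68, Pdgfra and Pecam1. Of 63647 deposited barcodes, 53443 were within the limits on UMIs and mitochondrial share, and 1656 met every criterion. They were 111, 32 and 28 barcodes in WT replicates 1, 2 and 3, and 1020, 431 and 34 in Aromhum replicates 1, 2 and 3.

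C1q is the recognition unit of the classical complement pathway, assembled from the A, B and C chains that C1qa, C1qb and C1qc encode. Most complement proteins come from the liver, whereas C1q is made mainly by tissue macrophages, which use it to tag dying cells and debris for uptake. In muscle and other connective tissue, macrophages are commonly divided into long-lived resident cells, which carry the hyaluronan receptor Lyve1, the folate receptor Folr2 and the phosphatidylserine receptor Timd4, and cells that came from blood monocytes, which carry the chemokine receptor Ccr2 and more of the major histocompatibility complex (MHC) class II genes.

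The 3 C1q genes lie side by side on mouse chromosome 4 and defined the population, so the start regions of those with a RefSeq promoter entry are shown (GRCm38.p6, 250 bases before to 50 bases after the start, minus strand). C1qb is at chr4:136886151-136886450 and C1qc at chr4:136892865-136893164. Capitals mark GAGGAA, a purine-rich core of the kind that the macrophage factor PU.1 binds, on either strand.
C1qb: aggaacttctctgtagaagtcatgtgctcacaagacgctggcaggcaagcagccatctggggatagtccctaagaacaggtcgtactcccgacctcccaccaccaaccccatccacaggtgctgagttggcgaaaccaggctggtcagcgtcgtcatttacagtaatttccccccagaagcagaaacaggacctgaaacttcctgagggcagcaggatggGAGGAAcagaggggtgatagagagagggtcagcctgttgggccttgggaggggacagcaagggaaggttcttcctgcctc
C1qc: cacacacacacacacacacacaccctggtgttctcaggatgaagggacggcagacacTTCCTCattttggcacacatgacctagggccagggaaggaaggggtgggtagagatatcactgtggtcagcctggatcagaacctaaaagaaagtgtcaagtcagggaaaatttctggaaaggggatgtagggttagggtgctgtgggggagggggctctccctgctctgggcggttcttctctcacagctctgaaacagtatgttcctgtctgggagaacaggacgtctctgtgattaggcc
Each window held 1 match, and 28.3% of the 32851 promoter windows of the same table held at least 1. A match describes the sequence and shows no binding.

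The 3 chains kept nearly the same proportions in every mouse, and these values are given without a test because they chose the cells. C1qa made up 46.9%, 40.5% and 49.2% of the C1q UMIs in WT and 45.2%, 44.3% and 44.2% in Aromhum mice, and C1qc made up 17.2% to 19.6% in all 6 mice. C1q as a whole took 0.657%, 0.43% and 0.447% of all UMIs of these cells in WT and 1.12%, 0.91% and 0.775% in Aromhum mice. Because the rule used C1q, no difference between genotypes is read from these values. Just inside the threshold of 10 UMIs, 101 cells held 10 to 14 C1q UMIs, just outside it 99 barcodes that met the other criteria held 5 to 9, and 1555 cells held 15 or more. Cd14, the co-receptor for lipopolysaccharide, was at 4812 CPM (the gene's UMIs relative to all UMIs of the cells) just inside the threshold, 3541 CPM just outside it and 4817 CPM in cells with 15 or more. Ms4a7, a membrane protein of mature macrophages, was at 583 CPM just inside it, 301 CPM just outside it and 829 CPM in cells with 15 or more.

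The label held on genes that the rule did not use, when set against all other barcodes within the limits. In the 6 mice Cd14 was at 2475 to 5261 CPM and Ms4a7 at 287 to 921 CPM. Against all other barcodes within the limits, the genes with the largest median ratio over the 6 mice after the C1q genes were Ms4a7 (200-fold), Folr2 (155-fold), the platelet factor Pf4 (151-fold) and the complement C3a receptor C3ar1 (129-fold). The 14-gene macrophage identity list, which includes Cd68 of the rule, took 2.21% to 3.24% of UMIs in WT and 1.67% to 2.07% in Aromhum mice. In the C1q-low myeloid barcodes described below it took 1.46% to 2.09% in WT and 1.68% to 1.99% in Aromhum mice. In Aromhum mice this list thus did not set the cells apart from the C1q-low barcodes. Markers of other blood cells were low. The 8 dendritic cell markers, 1 of them at 0 UMIs, together took 0.00211% to 0.0121% of UMIs in WT and 0.00698% to 0.00902% in Aromhum mice. The 3 measured neutrophil markers of 4 together took at most 0.00351% of UMIs, with S100a9 at 0, the 4 mast cell markers at most 0.000752%, with Cpa3 at 0, and the 5 T cell markers at most 0.00681%. Of 4 B cell markers 2 were measured, at most 0.000752% of UMIs, and of 4 natural killer cell markers 1, Nkg7, which had 0 UMIs in every mouse. Fibroblast RNA was present and uneven: the 8 fibroblast markers, of which Pdgfra is at 0 by the rule, took 0.138%, 0.0107% and 0.143% of UMIs in WT and 0.246%, 0.277% and 0.0312% in the Aromhum mice. The 4 erythroid markers reached 0.0847% in Aromhum replicate 1 and were at most 0.0148% in the other mice. The median cell held 5789, 8423.5 and 6030 UMIs in WT and 5801.5, 4486 and 6689 UMIs in Aromhum mice.

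The libraries held 64958237 to 111826460 UMIs and 7905 to 13764 barcodes each. The same barcode sequence occurred in more than 1 library for 943 barcodes, 19 of them C1q-positive macrophages, and no sequence was such a cell in 2 libraries. The deposited columns fall into 30 unlabelled blocks, in each of which the libraries follow one another, and 97.0% of the cells fell in 1 block of 3339 barcodes. The cells were 48.1% of that block, which also held 75.4% of the C1q-low myeloid barcodes described below. Human CYP19A1, the transgene, had 0 UMIs in these cells in every WT mouse and 9, 5 and 0 UMIs in Aromhum replicates 1, 2 and 3.

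The number of C1q-positive macrophages was high in Aromhum replicates 1 and 2 and low in the other 4 mice. They were 1.30%, 0.433% and 0.414% of barcodes within the limits in WT and 9.54%, 3.54% and 0.431% in Aromhum mice. The exact (Clopper-Pearson) 95% binomial intervals, which cover counting error only, ran from 1.07% to 1.57% in WT replicate 1 and from 8.99% to 10.1% in Aromhum replicate 1. Aromhum replicate 3 lay between WT replicates 2 and 3, so the genotypes overlapped. The means were 0.717% ± 0.507 (SD, n = 3) in WT and 4.50% ± 4.63 (SD, n = 3) in Aromhum mice, a difference of 3.79 points (2-sided exact permutation test, p = 0.3, where 0.1 is the lowest p that 3 against 3 mice allow). The difference was 1.27 points without Aromhum replicate 1 and 5.82 points without Aromhum replicate 3. A share can also change because other cells were recovered in other numbers, which cannot be told apart here. Among barcodes with Ptprc, the pan-leukocyte gene, the cells were 28.9%, 10.4% and 13.9% in WT and 55.4%, 33.7% and 11.1% in Aromhum mice (p = 0.3 by the same exact test).

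**Figure D1:**
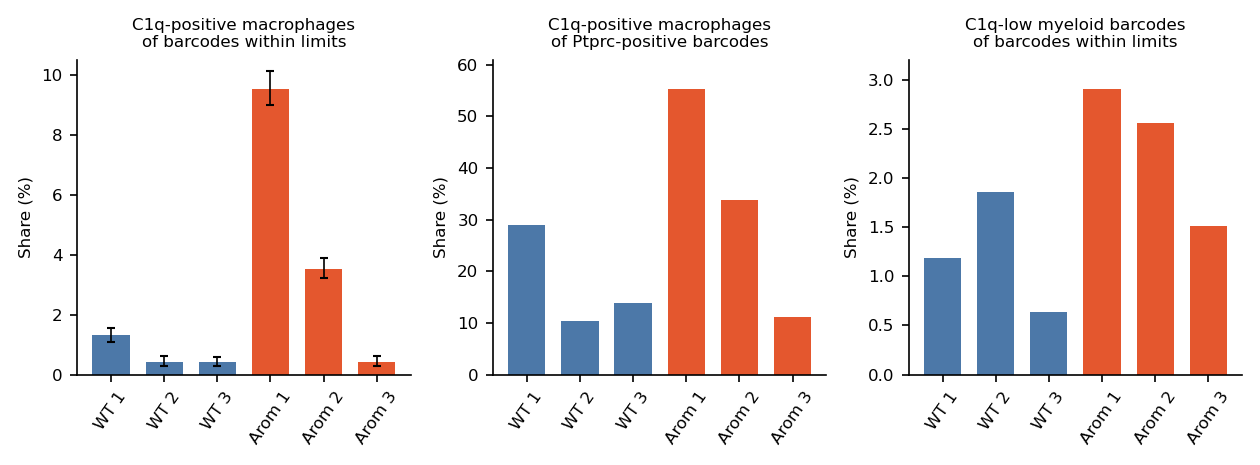
Bars give, for each mouse, the percentage of C1q-positive macrophages among barcodes within the limits (left, with exact 95% intervals) and among Ptprc-positive barcodes (middle), and the percentage of C1q-low myeloid barcodes (right). Aromhum replicates 1 and 2 stand at 9.54% and 3.54% in the left panel, and Aromhum replicate 3 at 0.431% lies among the WT mice.

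The closest cells for comparison were myeloid barcodes with under 10 C1q UMIs, at least 3 UMIs of the signalling adaptors Tyrobp and Fcer1g together, with the other criteria unchanged. They were 101, 137 and 43 barcodes in WT and 311, 312 and 119 in Aromhum mice, so C1q-positive cells made up 52.4%, 18.9% and 39.4% of the 2 classes together in WT and 76.6%, 58.0% and 22.2% in Aromhum mice. The C1q-low barcodes held more of the dendritic cell homing receptor Ccr7, 219 CPM ± 109 (SD, n = 6) against 7.31 ± 10.4 in C1q-positive macrophages, and less Folr2, 13.5 ± 12.3 against 292 ± 198. Other resident markers differed in direction. Pooled over the mice, Lyve1 was at 1.54 CPM in C1q-low barcodes and 169 CPM in 1616 C1q-positive macrophages. Timd4 was higher in C1q-low barcodes, at 129 CPM against 60.0 CPM in these 1616 cells. In the other 40 C1q-positive macrophages, described under other observations, Lyve1 was at 19.4 CPM and Timd4 at 305 CPM. Ccr2 was alike in level, at 179 ± 29.6 CPM in C1q-low barcodes and 162 ± 91.1 CPM in C1q-positive macrophages. These class levels are descriptions without a test. Whether the difference between genotypes differed between the classes was tested as an interaction in edgeR over 8035 genes, and none passed an adjusted p of 0.05, which is 0% of the genes tested. At an unadjusted p under 0.05 there were 339 genes, and DESeq2 called 3.

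The state of the cells varied widely between mice of 1 genotype. Detection of 15 genes was compared after every cell was thinned to 2000 UMIs, which left 1621 cells. Lyve1 was detected in 25.7%, 6.25% and 7.41% of cells in WT and 24.7%, 1.18% and 2.94% in Aromhum mice, and Folr2 in 45.0%, 18.8% and 25.9% against 48.0%, 16.1% and 32.4%. For both genes replicate 1 of each genotype stood highest, and the genotypes overlapped. Ccr2 was detected in 13.8%, 28.1% and 0% of cells in WT and 25.2%, 36.6% and 32.4% in Aromhum mice. The 0% in WT replicate 3 is 0 of 27 cells, which allows a share of up to 11.1% of cells with a UMI. Without thinning, Ccr2 was detected in 17.9% of the cells of that mouse.

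H2-Ab1, a chain of MHC class II, was detected in 66.1%, 90.6% and 66.7% of cells in WT and 72.6%, 96.7% and 88.2% in Aromhum mice. Il1b, the inflammatory cytokine interleukin 1β, was detected in 11.9%, 21.9% and 25.9% in WT and 37.3%, 47.8% and 20.6% in Aromhum mice. Aromhum replicates 1 and 2 stood above the WT mice for Il1b and Aromhum replicate 3 stood among them. Trem2, a lipid-sensing receptor of macrophages, was detected in 32.1%, 46.9% and 14.8% in WT and 60.6%, 56.3% and 29.4% in Aromhum mice. Ccl8, a monocyte attractant, was detected in 34.9%, 0% and 7.41% in WT and 53.7%, 16.3% and 0% in Aromhum mice, again highest in replicate 1 of each genotype. Cxcl2, a neutrophil attractant, was in 75.0% to 100% of the cells of every mouse, and Ly6c2 of inflammatory monocytes in at most 0.917%.

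Of the 15 genes, Mki67 alone did not overlap between genotypes. By level, 6.39% of all genes tested lay above without overlap and 5.63% below, so 1 such gene of 15 is read as no result. Mki67 was detected in 2.75%, 0% and 0% of cells in WT and 6.63%, 9.93% and 11.8% in Aromhum mice, a difference of 8.52 points (exact permutation p = 0.1, the lowest possible, and 0.9 after Benjamini-Hochberg adjustment over 15 genes). The WT values of 0% are 0 of 32 and 0 of 27 cells, which allow up to 9.38% and 11.1%, so a difference from the Aromhum mice is not shown by these counts. Without thinning Mki67 was in 7.21%, 6.25% and 3.57% of cells in WT and 15.6%, 17.2% and 35.3% in Aromhum mice, and in thinned Pecam1-positive barcodes it was in 0.102% to 1.33%. None of the 15 genes passed the adjusted test, which this number of mice did not allow. As a gauge of free RNA, Pecam1-positive endothelial barcodes (at least 2 UMIs of Pecam1, none of Pdgfra and under 3 of C1q) thinned to the same depth held Folr2 in at most 0.122%, Ccr2 in at most 0.295% and H2-Ab1 in at most 3.23% of barcodes. For Cxcl2 the share of these barcodes was 30.3% to 43.4%, and whether this was free RNA or their own was not tested. For Lyve1 their share was 2.14% to 4.91%, and lymphatic endothelium itself expresses Lyve1, so this share is no gauge of free RNA for that gene. The median depth before thinning was 5462 UMIs in C1q-positive macrophages and 6964 UMIs in Pecam1-positive barcodes.

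**Figure D2:**
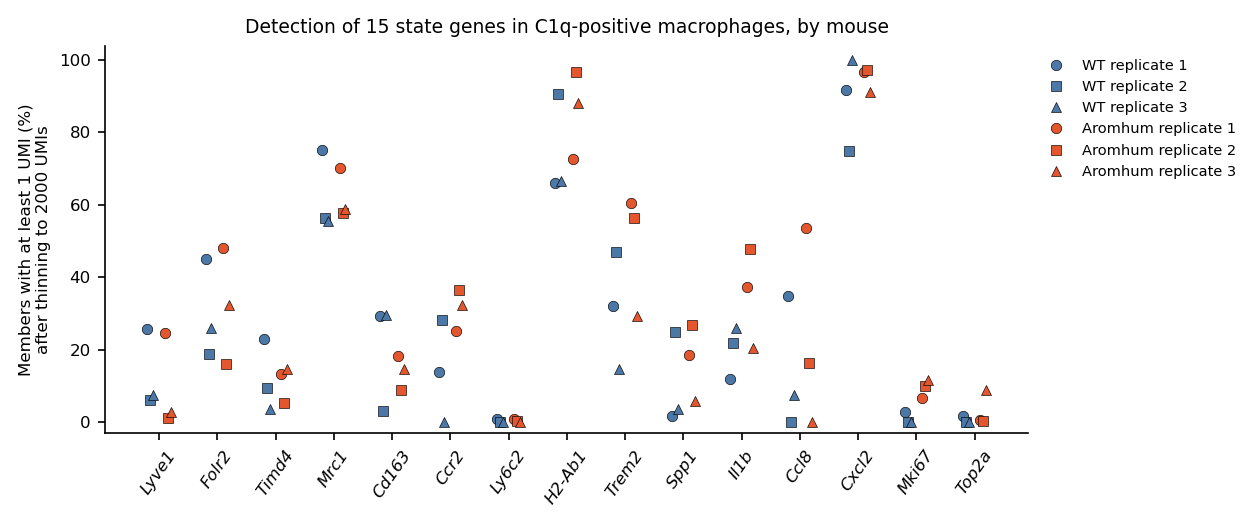
The y axis gives the percentage of C1q-positive macrophages with at least 1 UMI of each of 15 genes after thinning to 2000 UMIs, with 1 point per mouse. Lyve1 and Folr2 are highest in replicate 1 of both genotypes. For Mki67 alone the WT (at most 2.75%) and Aromhum (at least 6.63%) points do not overlap, and it did not pass the adjusted test. By level, 6.39% of all genes tested lay above without overlap and 5.63% below.

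Most cells with Mki67, the proliferation antigen Ki-67, held few other genes of division. Top2a, the topoisomerase of dividing cells, was detected in 1.83%, 0% and 0% of thinned cells in WT and 0.602%, 0.236% and 8.82% in Aromhum mice. In Aromhum replicate 2, 74 of 431 cells held Mki67 without thinning, 73 of these held no Top2a and 1 held at least 3 other genes of a 14-gene cell cycle list. In Aromhum replicate 1 the same counts were 159 cells with Mki67, 148 without Top2a and 11 with at least 3 others. In Aromhum replicate 3, 12 of 34 cells held Mki67 and 5 held at least 3 others. Cells with at least 4 of the 14 genes were 0.901%, 0% and 0% in WT and 1.18%, 0.232% and 14.7% in Aromhum mice, where the last value is 5 of 34 cells. These counts are not thinned, and such cells were deeper than the median cell in Aromhum replicates 1 and 3, with medians of 11812.5 and 17166 UMIs, the 1 such cell of WT replicate 1 held 30305 UMIs and the 1 such cell of Aromhum replicate 2 held 5389 UMIs. The part of depth was not tested.

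Within the population, Lyve1-positive cells held more of most resident genes and less of the MHC class II genes than Lyve1-negative cells. Positive meant at least 1 Lyve1 UMI, without thinning. The negative class was not uniform. The 40 cells described under other observations, few of which held Lyve1, had Timd4 at 305 CPM against 60.0 CPM in the other cells. Their H2-Ab1 was at 1238 CPM against 6246 CPM. These values pool the mice, which gave unequal shares of cells to both sets, and the part of the mouse was not tested. The split was tested within mice, with the mouse as a block, in edgeR's quasi-likelihood test. Lyve1-positive cells numbered 48, 3 and 7 in WT and 354, 8 and 8 in Aromhum mice, so the fit that asked for 10 cells of each class rested on replicate 1 of each genotype. It called 405 genes higher (5.45% of 7429 tested, Lyve1 included) and 546 lower (7.35%) in Lyve1-positive cells. With 1 residual degree of freedom, its spread came largely from other genes, so a fit over all 6 mice with at least 3 cells a class, chosen after the data were seen, is given beside it. That fit tested 2758 genes and called 67 higher (2.43%, Lyve1 included) and 74 lower (2.68%), and 133 of its 141 calls were called in both fits, which is 94.3% of its calls and 13.99% of those of the first fit. The fit of 6 mice was not repeated on thinned UMIs. After thinning, Lyve1-positive cells numbered 2 and 2 in WT replicates 2 and 3, and 5 and 1 in Aromhum replicates 2 and 3. The part of depth in the fit of 6 mice was not tested. Markers of some other cell types were called in the fit of 2 mice. Lower were 5 of 7 fibroblast and 4 of 4 skeletal muscle markers (7.35% over all genes). Higher were 3 of 3 erythroid markers (5.45% over all genes). In the fit of 6 mice 4 fibroblast and 4 skeletal muscle markers were tested and 0 called, and 0 erythroid markers were tested. The part of this RNA in the split was not tested.

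Of the resident macrophage genes other than Lyve1, 17 of 18 were higher in Lyve1-positive cells in the fit of 2 mice and 11 of 15 in the fit of 6 mice, where the median log2 fold change was 1.66 against -0.0088 over all genes tested. None was lower in either fit. Folr2 was at 958, 498 and 430 CPM in Lyve1-positive cells of the WT mice and 153, 101 and 92.6 CPM in their Lyve1-negative cells. In the Aromhum mice Folr2 was at 1278, 713 and 717 CPM against 227, 103 and 159 CPM, so the classes did not overlap in any mouse or between mice (log2 fold change 2.38 ± 0.19 SE, adjusted p = 2.18e-05, edgeR, 6 mice). Cbr2, a carbonyl reductase, was 2.50 ± 0.25 higher on the log2 scale and F13a1, the clotting factor XIII subunit that macrophages carry, 2.11 ± 0.25 higher, each in 6 of 6 mice. Maf, a transcription factor of resident macrophages, was 1.81 ± 0.24 higher, and Selenop, a selenium carrier, 1.32 ± 0.17 higher, each in 6 of 6 mice. Timd4, which is often used beside Lyve1, did not pass in the fit of 6 mice (0.92 ± 0.38, adjusted p = 0.209).

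All 8 MHC class II genes tested were lower in Lyve1-positive cells in the fit of 2 mice, and 5 of 6 were lower in the fit of 6 mice with a list median of -1.79. H2-Ab1 was at 1199, 1993 and 1644 CPM in Lyve1-positive cells of the WT mice and 5703, 6283 and 3076 CPM in their Lyve1-negative cells. In the Aromhum mice H2-Ab1 was at 904, 2965 and 2306 CPM against 7584, 9084 and 8262 CPM (log2 fold change -1.98 ± 0.23 SE, adjusted p = 0.000571, edgeR, 6 mice). Every Lyve1-positive value of H2-Ab1 was below every Lyve1-negative value. H2-DMb1, part of the peptide loader of class II, was at -2.42 ± 0.30, and Cd74, the invariant chain, at -1.59 ± 0.21. Of the monocyte-derived list, 5 of 10 tested genes were lower and 0 higher in the fit of 2 mice (median -0.86), and 2 of 6 were lower and 0 higher in the fit of 6 mice (median -0.49), against 7.35% and 2.68% lower over all genes tested in these fits. In 6 mice the lower ones were fibronectin, Fn1 (-1.72 ± 0.32, adjusted p = 0.00859), and coagulation factor X, F10 (-2.21 ± 0.45, adjusted p = 0.0134). The chemokine receptor Ccr2, of the same list, did not pass in either fit (-0.18 ± 0.24 in 2 mice and -0.44 ± 0.30 in 6 mice). Fn1 and F10 were also high in the 40 cells described under other observations, few of which held Lyve1. There, pooled over the mice, Fn1 was at 5854 CPM against 852 CPM in the other 1616 cells, and F10 at 547 against 95.3 CPM. The part of these cells in the 2 differences was not tested.

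By size in the fit of 2 mice, the other genes highest in Lyve1-positive cells were the lectins Cd209g, Cd209f, Cd209b and Cd209d, the peptidase Enpep, complement C6, the histidine ammonia-lyase Hal, Chp2, Etv1 and Folr2. Enpep, Cd209g, Cd209f, Cd209b, Chp2, C6 and Etv1 were too low to be tested in the fit of 6 mice, and Cd209g, Cd209b and C6 were higher in 2 of 6 mice. The Cd209 genes are a family of similar sequence, so their counts are uncertain one by one. Cd209d was at 563 CPM in WT replicate 1 and 311 CPM in Aromhum replicate 1 in Lyve1-positive cells, against 78.5 and 27.3 CPM in Lyve1-negative cells, and had 0 UMIs in the 3 and 7 Lyve1-positive cells of WT replicates 2 and 3. It passed in the fit of 6 mice (2.31 ± 0.45, adjusted p = 0.0134). The genes lowest in Lyve1-positive cells were Il1b, the interleukin 7 receptor Il7r, the survival gene Bcl2a1a, the acute-phase gene Saa3, the chemokine Ccl5, Cytip, Ramp3, the lipoxygenase Alox15, the NF-kB inhibitor Tnip3 and the potassium channel Kcnn4. Il7r was at -3.57 ± 0.50 in the fit of 6 mice (adjusted p = 0.00117) and lower in 6 of 6 mice. Il1b was lower in 4 of 6 mice and did not pass in that fit (-1.91 ± 0.69, adjusted p = 0.14), nor did Ccl5 (adjusted p = 0.0727). Ramp3 and Alox15 were too low to be tested in it. Alox15 and Saa3 were concentrated in 40 cells with at least 2 of Prg4, Alox15, Icam2 and Wnt2, genes chosen after their values were seen, and 2 of the 40 held Lyve1. Pooled over the mice, Alox15, which helped choose them, was at 629 CPM in those cells and 0.211 CPM in the other 1616. Saa3 was at 8373 and 263 CPM. On thinned UMIs the calls of Alox15 (adjusted p = 0.148), C6 (0.0809) and Etv1 (0.0522) were lost, and under DESeq2 that of Cd209f (0.0885). A split by Folr2 in place of Lyve1, with 11 to 664 Folr2-positive cells a mouse, called 24 genes higher (0.876% of 2739, Folr2 included) and 19 lower (0.694%), of which 41 were among the calls of the Lyve1 split in 2 mice. Il1b, Il7r, Bcl2a1a, Saa3, Ccl5, Cytip, Tnip3 and Kcnn4 did not pass in the Folr2 split (adjusted p from 0.0822 to 0.728).

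**Figure D3:**
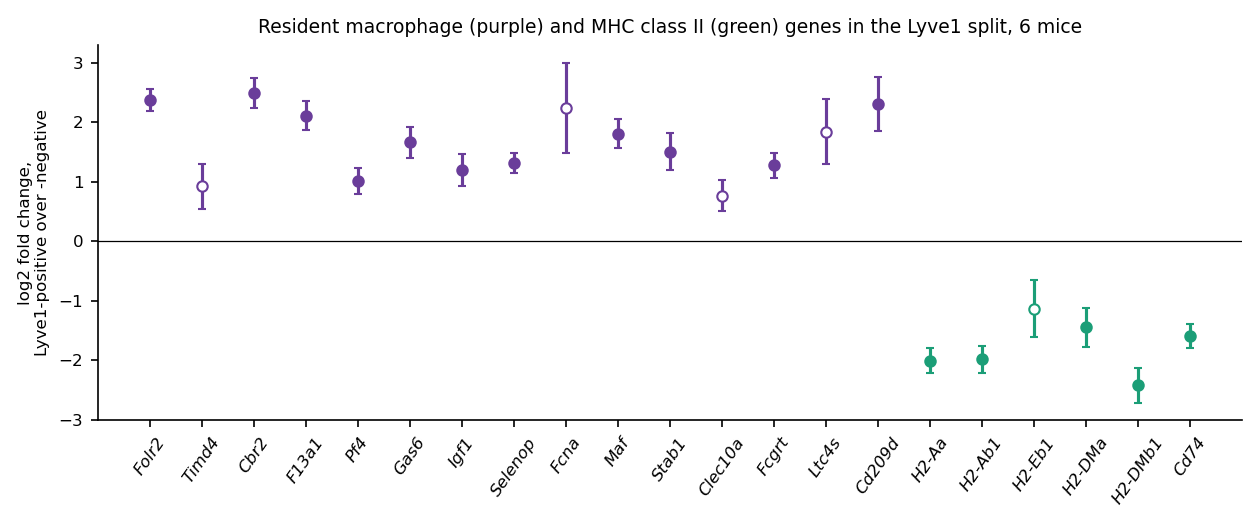
Points give the log2 fold change of Lyve1-positive over Lyve1-negative C1q-positive macrophages, with its standard error, for resident macrophage genes (purple) and MHC class II genes (green) in the fit of 6 mice. Filled points passed an adjusted p of 0.05. All 15 resident genes shown lie above 0 and all 6 MHC class II genes below it.

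Between genotypes, no gene was called in C1q-positive macrophages. Of 4761 genes tested on UMIs summed per mouse in edgeR's quasi-likelihood test, none (0%) passed an adjusted p of 0.05. At an unadjusted p under 0.05 there were 355 genes (7.46%), of which 196 (4.12% of those tested) were higher and 159 (3.34%) lower in Aromhum mice. All 3 Aromhum mice lay above all 3 WT mice for 304 genes (6.39%) and below them for 268 genes (5.63%). DESeq2 called 7 genes higher, Tnfsf9, Tgm2, Csf3, Ren1, Arl5c, Traf1 and Il10, and 4 lower, Fabp4, Lpl, Gpnmb and Hes1. The mice differed in depth: 1 UMI was worth 4.22 CPM in WT replicate 3 and 0.16 CPM in Aromhum replicate 1. The part of cell number and of spread between mice in the lack of calls was not tested. The genes below are those of smallest p in each direction with at least 20 CPM in the higher genotype and no overlap, together with genes of the lists, and none of them passed. Values by mouse are CPM normalized with edgeR's size factors, and differences are log2 fold changes of Aromhum over WT ± SE. In all edgeR fits here, the SE was calculated as the absolute log2 fold change over the square root of the quasi-likelihood F statistic.

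In the lipid- and scar-associated list, 5 of 17 tested genes lay below without overlap, against 5.63% of all genes tested, and edgeR called 0 of them. Fabp4, a fatty acid carrier of macrophages, adipocytes and capillaries, was at 543, 634 and 629 CPM in WT and 198, 155 and 144 CPM in Aromhum mice (-1.85 ± 0.22, adjusted p = 0.0979). Every Aromhum mouse was under every WT mouse by more than 2-fold. Lpl, the lipoprotein lipase, was at 155, 461 and 351 CPM in WT and 78.6, 66.1 and 91.4 CPM in Aromhum mice (-2.04 ± 0.39, adjusted p = 0.507). Cd36, the fatty acid scavenger receptor, was at 469, 464 and 376 CPM against 126, 53.5 and 243 CPM (-1.71 ± 0.47). Plin2, which coats lipid droplets and is not in the list, was at 376, 674 and 634 CPM against 306, 230 and 193 CPM (-1.19 ± 0.29). The sphingomyelinase-like Smpdl3a, also outside the list, was at -1.23 ± 0.31.

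Gpnmb, a glycoprotein of lipid-laden and phagocytic macrophages, was at 26.2, 251 and 63.4 CPM in WT and 16.0, 8.26 and 10.5 CPM in Aromhum mice (-3.11 ± 0.78, and -1.63 without WT replicate 2). Its WT level came from few cells: 5, 8 and 1 cells of the 3 WT mice held Gpnmb. Cd9, a tetraspanin, was at 319, 342 and 897 CPM against 165, 193 and 179 CPM (-1.52 ± 0.40, and -0.87 without WT replicate 3). Pooled over the mice, Cd9 was at 662 CPM in the 40 cells described under other observations, against 169 CPM in the others. Of these 40 cells, which held at least 2 of Prg4, Alox15, Icam2 and Wnt2, 6 were among the 28 cells of WT replicate 3. The part of the 40 cells in the difference was not tested. At an unadjusted p under 0.05 in edgeR, 6 genes of the list were lower and 1 was higher, against 3.34% and 4.12% of all genes tested, and DESeq2 called Fabp4, Lpl and Gpnmb lower. The list median was -0.65 against -0.0089 over all genes tested. The summed level of the list did not follow the median: it took 2.63%, 3.36% and 2.36% of UMIs in WT and 4.30%, 3.46% and 1.41% in Aromhum mice. Other members of the list differed in direction: Spp1, osteopontin, was at 18.0, 430 and 53.6 CPM in WT and 312, 435 and 38.7 CPM in Aromhum mice, and Apoe at 0.56 ± 0.49.

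The share of cells with Fabp4 was also lower in every Aromhum mouse than in every WT mouse. After thinning, 30.3%, 40.6% and 48.1% of cells held it in WT and 17.7%, 14.7% and 26.5% in Aromhum mice. By the same measure Cd36 was also lower in every Aromhum mouse. Lpl, Gpnmb, Cd9 and Plin2 overlapped between genotypes by share, although their levels did not. Lpl was held by 15.6%, 21.9% and 14.8% of cells in WT and 9.14%, 6.15% and 17.6% in Aromhum mice. Fabp4 is also very abundant in endothelium, where Pecam1-positive barcodes had 16887 CPM in WT and 13386 CPM in Aromhum mice (-0.34 ± 0.09). Fabp4 was also lower in Aromhum mice in Pdgfra-positive barcodes, where it passed (111 and 58.3 CPM, -0.93 ± 0.18, adjusted p = 0.0268), and was at 280 and 129 CPM in C1q-low myeloid barcodes, where it did not pass (-1.14 ± 0.32, adjusted p = 0.477). The 6 endothelial markers, of which Pecam1 is at 0 by the rule, took 0.00537% to 0.00572% of the UMIs of C1q-positive macrophages in WT and 0.00218% to 0.00359% in Aromhum mice. The part of these markers and of the other classes in the Fabp4 difference was not tested. Cldn5, an endothelial tight-junction gene among these markers, was itself on the lower side, at 20.7, 20.3 and 34.1 CPM in WT and 7.59, 3.40 and 3.52 CPM in Aromhum mice, and in Pecam1-positive barcodes at 2402 and 1384 CPM. Lpl was at 363 CPM in WT and 217 CPM in Aromhum mice in Pecam1-positive barcodes, and Plin2 at 40.3 CPM in both.

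**Figure D4:**
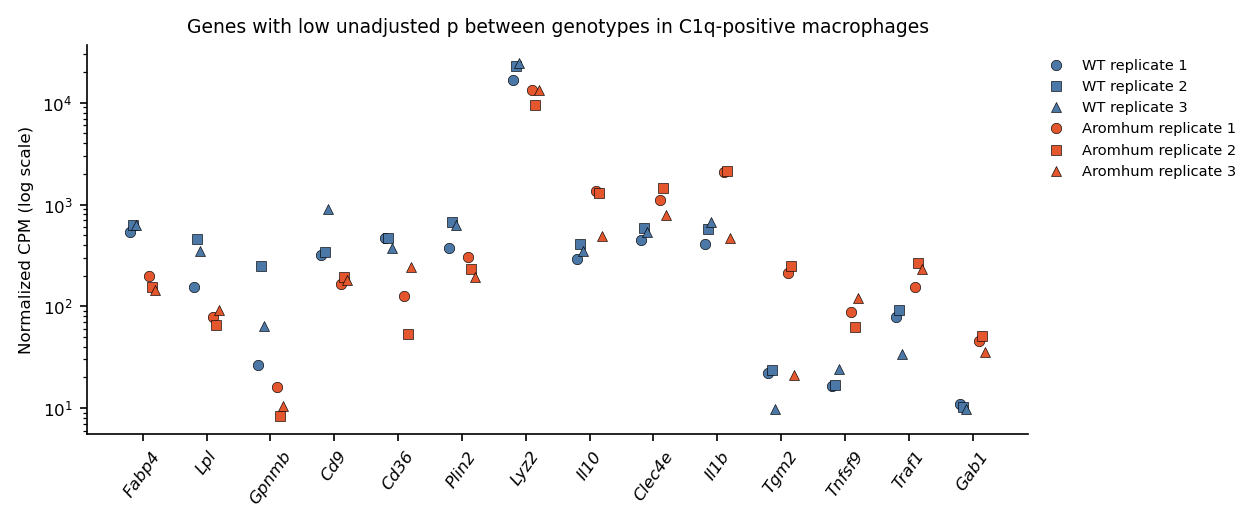
The y axis (log scale) gives the normalized CPM in C1q-positive macrophages, with 1 point per mouse, for genes of low unadjusted p between genotypes. Fabp4 and Lpl are lower in the 3 Aromhum mice than in the 3 WT mice, while for Il1b and Tgm2 Aromhum replicates 1 and 2 are high and Aromhum replicate 3 lies near the WT mice.

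In the inflammatory cytokine and NF-kB list, 4 of 16 tested genes were higher at an unadjusted p under 0.05, against 4.12% of all genes tested, and edgeR called 0. Il10, the anti-inflammatory interleukin, was at 291, 410 and 351 CPM in WT and 1350, 1284 and 496 CPM in Aromhum mice (1.58 ± 0.38). Clec4e, a receptor for damaged cells and microbial glycolipids, was at 447, 590 and 532 CPM against 1096, 1449 and 784 CPM (1.09 ± 0.27). Il1b was at 405, 573 and 668 CPM against 2084, 2118 and 464 CPM (1.52 ± 0.51), so its groups overlapped through Aromhum replicate 3. Of the 16 genes, 2 lay above without overlap, against 6.39% of all genes tested, none was lower at an unadjusted p under 0.05, and the list median was 0.49. DESeq2 called Il10. By share of thinned cells Il10 overlapped between genotypes, at 19.3%, 31.25% and 18.5% in WT and 53.7%, 55.8% and 20.6% in Aromhum mice. Clec4e did not overlap by share. Tnf (0.08 ± 0.38) and Il6 (-0.11 ± 0.65) were among the members of the list with small differences.

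Other genes of small p that lay above without overlap had various roles. Tnfsf9, the ligand of 4-1BB, was at 16.6, 16.9 and 24.4 CPM in WT and 87.9, 63.2 and 120 CPM in Aromhum mice (2.23 ± 0.35, adjusted p = 0.256). Traf1, a signalling adaptor, was at 78.7, 91.5 and 34.1 CPM against 154, 263 and 232 CPM (1.61 ± 0.36), and Tnip1, an inhibitor of NF-kB, at 1.24 ± 0.28. The receptor Tnfrsf1b was at 175, 213 and 132 CPM against 387, 451 and 218 CPM (1.03 ± 0.31). Gab1, a docking protein of growth factor receptors, was at 11.0, 10.2 and 9.75 CPM in WT and 45.2, 51.0 and 35.2 CPM in Aromhum mice (2.10 ± 0.32, adjusted p = 0.256), from 8, 3 and 2 UMIs in the WT mice. The zinc transporter Slc39a14 was at 1.58 ± 0.31, Nrg1, a neuregulin, at 2.27 ± 0.41 (in Pdgfra-positive barcodes 2.25 CPM in WT and 69.2 CPM in Aromhum mice, adjusted p = 0.0239), Arl5c, a small GTPase, at 1.86 ± 0.42, and the lysosomal enzyme Hgsnat at 1.29 ± 0.30. In Pdgfra-positive barcodes Slc39a14, Tnip1 and Arl5c, which were not called in C1q-positive macrophages, were called higher (0.94 ± 0.18, 0.80 ± 0.17 and 0.62 ± 0.15), while Tnfsf9 and Gab1 were called lower (-1.25 ± 0.16 and -0.88 ± 0.17). In Pecam1-positive barcodes Traf1 (16.3 CPM in WT and 35.0 CPM in Aromhum mice, adjusted p = 0.0238) and Tnfrsf1b (0.71 ± 0.12, adjusted p = 0.0136) were called higher and Tnfsf9 lower (-1.05 ± 0.17, adjusted p = 0.0134). The part of RNA from these other cells in these values was not tested. The share of all genes called in these other classes is not given, so the calls there are single values.

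Tgm2, a transglutaminase of macrophages that cross-links matrix proteins, separated Aromhum replicates 1 and 2 from all other mice. It was at 22.1, 23.7 and 9.75 CPM in WT and 214, 246 and 21.1 CPM in Aromhum mice (3.09 ± 0.76, adjusted p = 0.507). After thinning, 28.1% and 35.0% of the cells of Aromhum replicates 1 and 2 held Tgm2, against 2.75% in WT replicate 1 and 0% in the other 3 mice. Without Aromhum replicate 3 it was the 1 gene called (3.55, adjusted p = 0.0296, edgeR, 5 mice). That fit left out the Aromhum mouse of low Tgm2, so the call adds no support.

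Several genes on the higher side were more abundant in fibroblasts or endothelium of the same mice. Pdgfra-positive barcodes were chosen like the Pecam1-positive ones, with the roles of Pdgfra and Pecam1 exchanged. Ren1, renin, was at 19.3, 3.39 and 4.88 CPM in WT and 120, 51.0 and 52.7 CPM in Aromhum mice, and in Pdgfra-positive barcodes at 1565 CPM in WT and 10213 CPM in Aromhum mice. Pnoc, the nociceptin precursor, was at 11.0, 3.39 and 4.88 CPM against 49.4, 26.3 and 31.6 CPM, and in Pdgfra-positive barcodes at 736 and 4735 CPM. Dmkn, dermokine, was at 77.3 CPM in WT and 149 CPM in Aromhum mice in Pdgfra-positive barcodes. Csf3, granulocyte colony-stimulating factor, was at 4.14, 3.39 and 24.4 CPM against 105, 44.2 and 59.8 CPM, and in Pecam1-positive barcodes at 234 and 792 CPM. Collagen Col3a1 was highest in Aromhum replicates 1 and 2, at 60.8, 20.3 and 156 CPM in WT and 584, 623 and 80.9 CPM in Aromhum mice (2.55 ± 0.81, and 0.98 without Scrublet doublets). The fibroblast markers ran from 0.0107% to 0.143% of UMIs in WT and 0.0312% to 0.277% in Aromhum mice, and their part in these differences was not tested.

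The remaining genes of the lower side had other roles. The notch target Hes1 was at 124, 37.3 and 239 CPM in WT and 31.6, 21.9 and 21.1 CPM in Aromhum mice and did not pass in edgeR (-2.30 ± 0.54, adjusted p = 0.507). It passed in Pdgfra-positive (-0.60 ± 0.13, adjusted p = 0.0306) and Pecam1-positive barcodes (-0.73 ± 0.12, adjusted p = 0.014). The circadian repressor Ciart was at 20.7, 20.3 and 34.1 CPM against 5.23, 7.29 and 7.03 CPM. Cxcl10, the interferon-induced T cell attractant, was at 226, 244 and 385 CPM against 115, 60.8 and 141 CPM (-1.46 ± 0.35), while 0 of the 9 tested genes of the interferon-stimulated list reached an unadjusted p under 0.05. Slc9a3r2, a scaffold protein, was at -1.51 ± 0.31, Zfp622 at -1.03 ± 0.22 and the myelin gene Mbp at -1.35 ± 0.30. Mbp was called lower in Pdgfra-positive barcodes, at 25.0 and 6.36 CPM (-1.96 ± 0.39, adjusted p = 0.0262).

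Lyz2, the lysozyme of all myeloid cells, was at 16800, 22818 and 24510 CPM in WT and 13390, 9556 and 13231 CPM in Aromhum mice (-0.83 ± 0.24). In C1q-low myeloid barcodes, before size factors, it was at 12998 CPM ± 2021 in WT and 13185 CPM ± 2542 in Aromhum mice (SD, n = 3 each). The chemokine Ccl3 was at 1741, 1064 and 5272 CPM against 887, 434 and 963 CPM (-1.82 ± 0.58, and -0.89 without WT replicate 3), and Pf4 at 3625, 1924 and 2536 CPM against 1400, 1448 and 1913 CPM (-0.77 ± 0.27). Aif1, the macrophage protein IBA1, was at 134, 183 and 141 CPM against 252, 270 and 204 CPM (0.68 ± 0.23). Among genes of identity with no such separation, Trem2 was at 0.02 ± 0.44 and Mrc1, the mannose receptor CD206, at 0.26 ± 0.40.

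The resident, monocyte-derived and MHC class II lists gave 0 calls between genotypes in edgeR. The 16 tested resident genes had a median of -0.1, with 0 higher and 1 lower (Pf4) at an unadjusted p under 0.05. The 8 monocyte-derived genes had a median of -0.27 with 0 higher and 2 lower, and the 8 MHC class II genes a median of 0.43 with 1 higher and 0 lower. H2-Ab1 was at 4124, 6048 and 3185 CPM in WT and 5578, 9395 and 6874 CPM in Aromhum mice, and the genotypes overlapped. Retnla, a secreted product of alternatively activated macrophages, was at 20705, 12414 and 7837 CPM in WT and 6530, 3304 and 20657 CPM in Aromhum mice. Ccl8 was at 1233, 0 and 53.6 CPM in WT and 5916, 465 and 3.52 CPM in Aromhum mice.

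The following lists had 0 calls in edgeR as well. Of 13 chemokine genes tested, 1 was higher and 3 were lower at an unadjusted p under 0.05 (median 0.05), the lower ones being Ccl3, Ccl4 and Cxcl10. Of 16 receptors for growth factors and microbial patterns, Tnfrsf1b alone was higher and none was lower (median 0.12). Of 14 macrophage transcription factors, 0 were higher and 1 was lower (median -0.3), and of 9 complement genes other than C1q, 0 were higher and 1 was lower (median -0.07). Of 9 iron and haem genes none was on either side (median -0.21). The 13 phagocytic and Fc receptors had 1 on each side (median 0.16), as had the 14 growth factor and remodelling genes (median -0.17). These counts compare with 4.12% higher and 3.34% lower over all genes tested.

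Stress genes of the response to tissue dissociation were uneven as well. Hspa1a, a heat-shock protein, was at 1131, 84.7 and 990 CPM in WT and 287, 41.3 and 137 CPM in Aromhum mice, high in WT replicates 1 and 3 and low in WT replicate 2. The 16 tested dissociation genes had a median of -0.52, with 0 called, and 2 lower at an unadjusted p under 0.05, Hspa1a and Hspa1b. As a sum, the list took 0.907% to 2.32% of UMIs in WT and 1.25% to 1.63% in Aromhum mice. In C1q-low myeloid barcodes the genotypes overlapped, at 0.801% to 0.892% in WT and 0.85% to 1.03% in Aromhum mice. In the other classes it was lower in Aromhum mice without overlap, at 1.30% to 1.52% against 1.80% to 2.10% in Pdgfra-positive and 2.13% to 2.50% against 3.05% to 3.21% in Pecam1-positive barcodes. The part of this list in the other differences was not tested.

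Esr1, estrogen receptor α, was near the detection limit in these cells. It had 4, 2 and 1 UMIs in WT and 48, 13 and 3 UMIs in the Aromhum mice, which is 5.20, 6.72 and 4.22 CPM and 7.68, 6.04 and 10.8 CPM. In Aromhum replicate 1, 4.12% of cells held Esr1 without thinning. Of the 12 genes of the hormone list, 1 was high enough to be tested, the glucocorticoid receptor Nr3c1, at 128, 84.7 and 87.8 CPM in WT and 139, 105 and 134 CPM in Aromhum mice (0.29 ± 0.25).

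**Figure D5:**
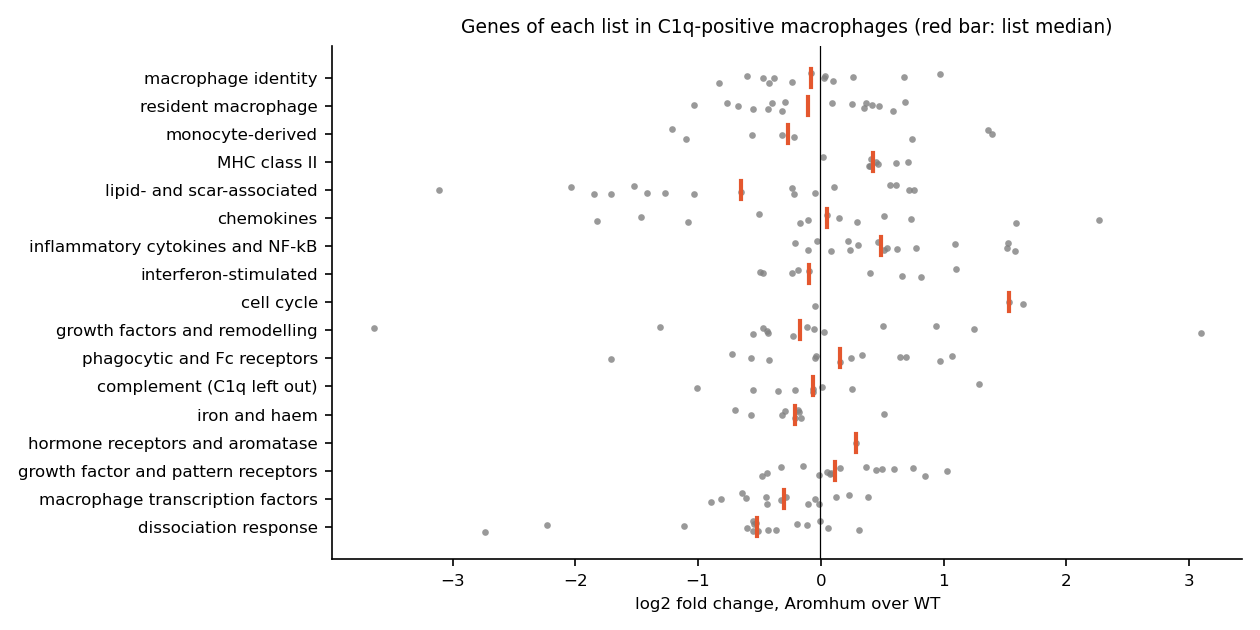
Each grey point is the log2 fold change of Aromhum over WT of 1 gene in C1q-positive macrophages, by gene list, the red bar is the list median, and the vertical line is the median of all 4761 genes tested (-0.0089). The lipid- and scar-associated list has a median of -0.65 and the inflammatory cytokine and NF-kB list of 0.49, and no gene shown passed an adjusted p of 0.05.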

How the data were processed

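Single cells of LAM tissue from 3 WT and 3 Aromhum mice were sequenced with the 10x Genomics 3' protocol, 1 library a mouse. The authors deposited 1 table that holds 16494 genes as UMI counts, not normalized. Per the labels and the study's methods, reads were aligned with Cell Ranger 3.0.2 to mm10 with human CYP19A1 added, and the mice were processed on several dates, each with 1 WT and 1 Aromhum littermate. Which mice shared a date is not given in the sources used here. C1q-positive macrophages were taken by the rule given with the results, with no clustering. The members, the gene lists and the tests were chosen with earlier results of these data known. UMIs were summed per mouse and compared in edgeR 4.0.16 (R 4.3.3; TMM, filterByExpr, quasi-likelihood test, Benjamini-Hochberg adjustment over all genes tested), with DESeq2 1.42.0 as an alternative. Shares were compared by exact permutation over mice. Doublets were kept, and Scrublet in scanpy 1.11.5 marked 0, 0 and 0 cells of the WT mice and 27, 14 and 0 of the Aromhum mice, and no barcode at all in WT replicates 2 and 3. Named genes were the 12 a direction of smallest p among genes of at least 20 CPM without overlap, since none passed, the genes of the lists and, in the Lyve1 split, the 10 a direction of largest change past the threshold with at least 50 CPM. Other genes given with values, and the Lyve1 split over all 6 mice and the Folr2 split, were chosen after the values were seen. Scripts were tested on simulated data. Fits used Python 3.11.15, numpy 2.4.6, scipy 1.17.1 and pandas 2.3.3, and figures matplotlib 3.10.9.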

Additional observations from a re-analysis of the deposited data

How the results depend on the processing

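The higher mean share of C1q-positive macrophages in Aromhum mice kept its direction in all 15 alternatives (1.27 to 5.82 points when 1 mouse was left out, 2.91 to 5.86 points with other limits, thresholds or thinning), with an exact permutation p of at least 0.2. Among the 15, the block by replicate number keeps the mean difference by arithmetic, so its direction could not change and it adds no support. WT and Aromhum mice share replicate numbers, and over 2470 genes the deviations of same-numbered mice correlated with r = 0.42, -0.0056 and -0.23. Since not every pair correlated, the numbers were not taken as pairs, and which littermates shared a date is not known. With the number as a replicate block, the share differed by 3.79 points (exact sign-flip p = 0.25, the lowest possible), and 0 genes were called higher and 0 lower between genotypes, with 380 at an unadjusted p under 0.05. The replicate block could not be crossed with the Lyve1 split, where the mouse is already the block, nor were leave-one-out fits of that split possible with 2 mice.

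Between genotypes, DESeq2 called 7 genes higher and 4 lower, and the test with no filter on low counts 56 and 31. With at most 5% mitochondrial UMIs and 2500 genes (5 mice with enough cells) 1 gene, Thbs1, was higher. Leaving out 1 mouse gave 0 to 1 genes higher, the 1 being Tgm2 without Aromhum replicate 3, and 0 lower. The other limits, thresholds and size factors gave 0 calls. Among the 15 state genes, the number without overlap was 2 under the study's limits, 2 when thinned to 1000 UMIs and 2 with no thinning. This number was 1 to 5 when 1 mouse was left out. It was 5 without WT replicate 2, and 3 without WT replicate 1, Aromhum replicate 1 or Aromhum replicate 3. With fewer mice in a group, a lack of overlap arises more easily by chance. The counts with 1 mouse left out therefore cannot be compared with the count of all mice, and no dependence on a single mouse is read from them.

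For the Lyve1 split, DESeq2 called 52 genes higher and 102 lower, size factors by relative log expression 241 and 357, and sums on thinned UMIs 119 and 179, beside the 67 and 74 of 6 mice and the 24 and 19 of the Folr2 split. For the interaction with C1q-low myeloid barcodes, DESeq2 called 1 higher and 2 lower, no filter 30 and 70, and the test without Scrublet doublets 3 lower. Leaving out 1 mouse gave 0 to 1 higher and 0 to 6 lower, the highest without WT replicate 2. The cause of these changes was not tested.

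No state gene passed in any setting, and small differences turned direction. With at most 5% mitochondrial UMIs and 2500 genes, the Aromhum minus WT share was 1.19 points for Lyve1 and -1.01 for Top2a. With at most 5% mitochondrial UMIs it was 1.41 for Lyve1, 3.85 for Mrc1, 2.16 for Cd163 and -0.35 for Ly6c2. It was 1.51 for Mrc1 with at least 5 C1q UMIs, -0.11 for Ly6c2 with at least 20, and 0.56 for Mrc1 without Scrublet doublets. Thinned to 1000 UMIs it was 0.89 for Mrc1 and 2.64 for Cd163, and unthinned 2.59 for Mrc1 and -1.01 for Ly6c2. Leaving out 1 mouse it ran from -11.1 to 2.78 for Lyve1, -5.66 to 10.3 for Folr2, -5.07 to 4.55 for Timd4, -4.09 to 6.36 for Mrc1, -0.19 to 0.38 for Ly6c2, -5.93 to 20.9 for Ccl8, -0.83 to 11.7 for Cxcl2 and -0.19 to 4.1 for Top2a.

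Genes that turned between genotypes, none of them called, had log2 fold changes under the study's limits of 0.13 for Itgam, -0.012 for Ms4a7, 0.027 for Itgb2 and 0.94 for Fn1, and of 0.21 for Mmp12 with the rule on 3000 thinned UMIs. Leaving out 1 mouse, they ran from -4.30 to 0.55 for Mmp12, from -1.46 to 0.0097 for Retnla and from -0.84 to 6.50 for Ccl8. WT replicates 2 and 3 and Aromhum replicate 3 entered the comparisons of gene levels with 28 to 34 cells each, and the part of cell number was not tested.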

Other observations

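A few C1q-positive macrophages carried a set of genes that the lists did not hold, and the genes were chosen after their values were seen. Prg4, which encodes the lubricant proteoglycan 4, had 754, 0 and 558 UMIs in WT replicates 1, 2 and 3 and 537, 43 and 1 UMIs in the Aromhum mice. Alox15, a lipoxygenase, had 130, 0 and 106 UMIs against 90, 0 and 0, the adhesion molecule Icam2 93, 1 and 52 against 101, 9 and 0, and Wnt2, a secreted signal, 51, 0 and 19 against 21, 10 and 0. Cells with at least 2 of these 4 genes were 12, 0 and 6 in WT and 19, 3 and 0 in Aromhum mice, or 10.8%, 0% and 21.4% and 1.86%, 0.696% and 0% of the C1q-positive macrophages.

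All 12 and all 6 such cells of WT replicates 1 and 3 held Timd4, as did 14 of 19 in Aromhum replicate 1, while 0 of 3 in Aromhum replicate 2 did. Ccr2 was held by 3 of 12 and 1 of 6 in these WT mice and by 2 of 19 and 2 of 3 in Aromhum replicates 1 and 2. In all, 2 of the 40 cells held Lyve1. Summed over these 40 cells, Saa3, an acute-phase protein, was at 8373 CPM against 263 CPM in the other 1616 cells, Fn1, fibronectin, at 5854 against 852 CPM, Cd9 at 662 against 169 CPM, Timd4 at 305 against 60.0 CPM and H2-Ab1 at 1238 against 6246 CPM. These are descriptions without a test. The sums pool the mice, and the 40 cells came from the mice in other proportions than the rest. H2-Ab1 over all C1q-positive macrophages was at 2753 CPM in WT replicate 3 and 8984 CPM in Aromhum replicate 2. The part of mouse and genotype in these contrasts was not tested. The median such cell held 15163.5 UMIs in WT replicate 1, 15506.5 in WT replicate 3 and 8806 in Aromhum replicate 1, against medians of 5789, 6030 and 5801.5 UMIs over all C1q-positive macrophages of these mice, and the part of depth was not tested. The mesothelial markers Upk3b and Msln were at 0 and 1.94 CPM in them. Of the C1q-low myeloid barcodes, 4 of 1023 held at least 2 of the genes.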
